A study of Mus musculus with 24 samples.

Results

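The 10 transcripts described here are encoded by the mitochondrial genome: *mt-Nd1*, *mt-Nd2*, *mt-Nd4*, *mt-Nd4l*, *mt-Co1*, *mt-Co2*, *mt-Co3*, *mt-Atp6*, *mt-Atp8*, and *mt-Cytb*. They are 10 of the 13 features whose symbol starts with mt-, among 32285 genes in the count matrix. The remaining 3, *mt-Nd3*, *mt-Nd5*, and *mt-Nd6*, entered only the mitochondrial limit on cells and a few comparisons. The members were chosen by symbol and partly by a measured result, since *mt-Atp8*, *mt-Nd4l*, and *mt-Cytb* were lower with PancVAX in CD8+ T cells. That contrast is therefore given as a description with no test.

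The mitochondrial genome codes for subunits of the respiratory chain and its ATP synthase, which are built together with many more subunits made from nuclear genes. Both of its strands are copied as long precursors that are cut into transcripts, and some neighboring coding sequences, such as those of *mt-Atp8* and *mt-Atp6*, stay on a shared transcript. In single-cell libraries a high mitochondrial share is widely used as a sign of a damaged cell, and it also differs between cell types with their content of mitochondria and of other RNA.

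The libraries came from tumors of Panc02, a mouse pancreatic cancer cell line, implanted s.c. in the flank of WT male C57BL/6 mice and harvested on day 38. The 8 treatments were isotype control, anti–PD-1, anti–CTLA-4, both antibodies, PancVAX alone, and PancVAX combined with either antibody or with both. PancVAX, a vaccine of tumor neoantigen peptides given with AddaVax and a STING agonist, was injected at 50 ug of each peptide on days 12 and 19. Anti–CTLA-4 was given at 100 ug on days 15 and 22, and anti–PD-1 at 100 ug repeatedly from day 12. Tumors were pooled within a treatment and sequenced both as whole-tumor suspensions and as immune-enriched suspensions from a Percoll gradient, each preparation as a sequencing batch. This gave 16 RNA libraries. A library is thus a pool of mice, the preparation cannot be told apart from the sequencing batch, and all tumors derive from the same cell line. The sources do not say if both libraries of a treatment came from the same animals, so the 8 treatments, called pools, were the units when treatments were compared.

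Library totals over all barcodes ranged from 7.71e+07 to 1.76e+08 UMIs. Within the limits on genes, UMIs, and hemoglobin given next they ranged from 7.68e+06 to 3.01e+07. Barcodes within these limits held 246915513 of all 1827616567 UMIs, so the results describe barcodes of up to 10000 UMIs. Of 144994 barcodes, 62522 lay within the study's limits on genes (200–3000), UMIs (1000–10000), and hemoglobin, and 57357 of these (91.7%) also had less than 10% mt- UMIs. Barcodes were assigned to lineage gates by nuclear marker genes alone. Genes and TCR contigs not used for the gates served as a check of the names. A contig was found in 89.1% of CD8+ and 92.8% of CD4+ T gate barcodes of the Percoll libraries and in 0 NK gate barcodes. The T gate markers include the TCR genes *Trac*, *Trbc1*, and *Trbc2*, so the contigs are not independent of the gates. *Lyz2* was found in 95.2% of the monocyte or macrophage gate and in 12.3% of the CD8+ T gate (median 3745 and 3917 UMIs). It was also found in 39.9% of the neutrophil gate and 26.2% of the dendritic cell gate. *Il1b* was found in 97.6% of the neutrophil gate but also in 65.9% of the monocyte or macrophage gate. *Cd74* was found in 99.9% of the B cell gate, 98.9% of the monocyte or macrophage gate, and 75.3% of the keratin tumor cell gate. These 2 genes thus separate the gates poorly. *Spp1* was found in 81.7% of the keratin tumor cell gate but also in 66.9% of the fibroblast gate and 54.4% of ungated barcodes, so it does not tell these apart. The Percoll library of PancVAX with anti–PD-1 stood apart, with 7546 barcodes of which 40.5% held *Ptprc*, against 46.2%–64.3% in the other 15 libraries. Results for the treatments are given also without it where that changes them. No pair of libraries stood apart in how many barcode sequences it shared.

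All 10 members lie on the mitochondrial chromosome (MT) and are coding throughout, with no introns. In the RefSeq annotation of GRCm38.p6 the complex I genes are *mt-Nd1* (ENSMUSG00000064341) at 2751–3707, *mt-Nd2* (ENSMUSG00000064345) at 3914–4951, *mt-Nd4l* (ENSMUSG00000065947) at 9877–10173, and *mt-Nd4* (ENSMUSG00000064363) at 10167–11544. *mt-Cytb* (ENSMUSG00000064370), the mitochondrially made subunit of complex III, lies at 14145–15288. The complex IV genes are *mt-Co1* (ENSMUSG00000064351) at 5328–6872, *mt-Co2* (ENSMUSG00000064354) at 7013–7696, and *mt-Co3* (ENSMUSG00000064358) at 8607–9390. The ATP synthase genes are *mt-Atp8* (ENSMUSG00000064356) at 7766–7969 and *mt-Atp6* (ENSMUSG00000064357) at 7927–8607. *mt-Atp8* and *mt-Atp6* overlap by 43 bases *mt-Nd4l* and *mt-Nd4* by 7 bases, and *mt-Atp6* and *mt-Co3* by 1 base, so reads in these stretches cannot be placed in a single gene, and the counts of these pairs are uncertain in how they divide.

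The members differed widely in level, and per kilobase of gene the top places in their order differed between cell types. Over all barcodes before the 10% limit, the mean level was 93.3 ± 15.6 UMIs per 10000 for *mt-Co1* (SD, n = 8 pools), the highest of the members, and 10.4 ± 4.18 for *mt-Atp8*, the lowest. Per kilobase of gene the order changed. *mt-Co3* was at 95.5, *mt-Nd4l* at 93.3, *mt-Co2* at 88.2, and *mt-Atp6* at 82.5 UMIs per 10000 per kilobase. *mt-Co1* (60.4), *mt-Cytb* (54.6), and *mt-Atp8* (50.9) followed, and *mt-Nd1* (16.5), *mt-Nd2* (14.8), and *mt-Nd4* (9.33) were lowest. *mt-Nd1*, *mt-Nd2*, and *mt-Nd4* held places 8, 9, and 10 of the 13 features in this order in each of 10 gates. The first place went to *mt-Co3* in B, CD4+ T, CD8+ T, and NK cells and neutrophils, to *mt-Co2* in dendritic cells and macrophages, and to *mt-Nd4l* in endothelial cells, fibroblasts, and keratin tumor cells. The 3 mt- features that are no members lay lower still, at 5.54 for *mt-Nd3*, 4.25 for *mt-Nd5*, and 1.45 for *mt-Nd6*. A UMI stands for a molecule and not for its bases, so the order per kilobase follows from the division by length. It is not an order of molecules. In UMIs per 10000 *mt-Nd4l* was at 27.7, and *mt-Co1* was the highest member in each of the 10 gates.

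The summed share of the members was on average highest in fibroblasts, with T cells, NK cells, and dendritic cells at the low end. In the fibroblast gate the 10 transcripts made up 7.36% ± 1.22 of the UMIs before the 10% limit (SD, n = 8 pools), from 5.27% in the lowest to 9.12% in the highest pool. The keratin tumor cell gate followed at 4.49% ± 0.533, the B cell gate at 4.34% ± 1.23, the endothelial gate at 4.01% ± 0.924, and the monocyte or macrophage gate at 3.97% ± 0.668. With no upper limits on genes and UMIs 2 of these places turned over. Keratin tumor cells minus B cells was then −1.17 points, and endothelial cells minus macrophages −1.22. The neutrophil gate was at 3.06% ± 1.45, with pools from 1.32% to 5.20%. The CD4+ T gate was at 2.80% ± 0.895, the NK gate at 2.72% ± 0.609, the CD8+ T gate at 2.65% ± 0.521, and the dendritic cell gate at 2.49% ± 0.455. The place of neutrophils changed with the preparation, since they were the lowest gate in the Percoll libraries (1.04%) and above all gates but fibroblasts and B cells in the whole-tumor libraries (5.40%), and after the 10% limit they were the lowest of the 10 gates (2.01%). A share is a fraction of a cell's own UMIs, so fewer mitochondrial transcripts and more nuclear transcripts cannot be told apart.

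**Figure D1:**
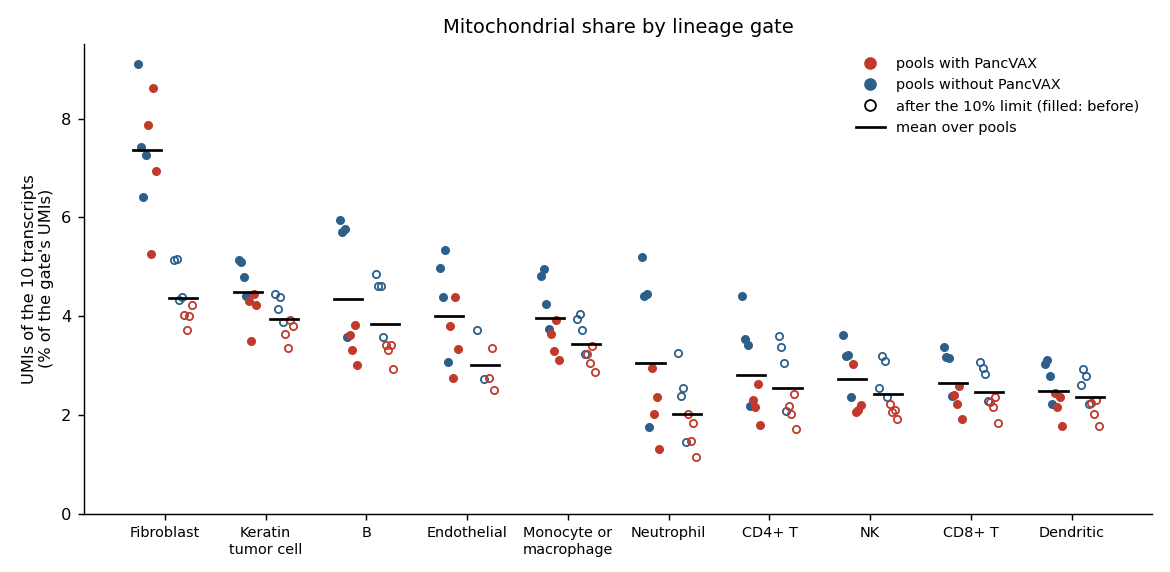
UMIs of the 10 mitochondrially encoded transcripts as a percentage of the gate's UMIs (y axis) in 10 lineage gates (x axis), with 1 point for each pool before (filled) and after (open) the 10% limit, and bars at the mean (5 endothelial pools after the limit; color, with or without PancVAX). The fibroblast pools lie between 5.27% and 9.12% before the limit and come down to a mean of 4.37% after it.

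Most neighbors in this order did not differ beyond their spread. Fibroblasts exceeded keratin tumor cells by 2.87 percentage points in 8 of 8 pools (exact 2-sided sign-flip test, P = 0.0078, the smallest this test can give, adjusted P = 0.0703 over 9 neighboring pairs). A limit of 10% on a barcode's mitochondrial share took 26.6% of the fibroblast gate and 5.44% of the keratin tumor gate, and with it the means were 4.37% and 3.945%, a difference of 0.427 points (adjusted exact P = 0.0352). CD8+ T cells exceeded dendritic cells by 0.165 points in 7 of 8 pools (exact P = 0.0156, adjusted P = 0.0703), and macrophages exceeded neutrophils by 0.911 points in 6 of 8 pools (exact P = 0.0391, adjusted P = 0.117). The other 6 pairs differed by 0.0379 to 0.336 points. Thus 0 of 9 pairs passed an adjusted P of 0.05, and 3 had an unadjusted exact P below it. After the 10% limit 4 of 9 pairs passed, and neutrophils then lay 0.540 points below CD4+ T cells (adjusted exact P = 0.0234), the reverse of their order before it.

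All 10 members were highest in the fibroblast gate, but the other gates ranked differently from member to member. On average *mt-Co1* was lowest in neutrophils, at 56.1 ± 27.3 UMIs per 10000, against 63.9 ± 8.97 in dendritic cells, the next lowest. The neutrophil pools ranged from 23.9 to 98.1. Both preparations are joined in these means, and the members' share of neutrophils was 1.04% in Percoll and 5.40% in whole-tumor libraries. *mt-Cytb* was lowest in dendritic cells at 27.7, with CD8+ T cells at 29.9, neutrophils at 49.7, and keratin tumor cells at 73.3. As a share of the members' own UMIs, *mt-Cytb* made up 16.9% ± 0.585 in fibroblasts, 16.4% ± 0.679 in keratin tumor cells, and 16.2% ± 0.475 in neutrophils, against 11.2% ± 0.801 in CD8+ T cells (SD, n = 8 pools). *mt-Co1* made up 18.3% ± 0.322 in neutrophils and 24.2% ± 0.699 in CD8+ T cells. *mt-Nd4l* made up 7.29% ± 0.493 in fibroblasts and 5.30% ± 0.481 in CD8+ T cells. These differences between gates are several times the spread over pools.

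The 10% limit removed 5165 of 62522 barcodes (8.26%), and it removed them unevenly. It took 26.6% of the fibroblast gate, 13.0% of the endothelial gate, 8.08% of the monocyte or macrophage gate, 6.69% of B cells, 5.70% of neutrophils, and 5.44% of keratin tumor cells. Of CD8+ T cells it took 2.34%, of CD4+ T cells 2.51%, and of dendritic cells 2.21%. Barcodes that met no gate lost 14.9%. The barcodes removed had fewer UMIs and more *Malat1*, a nuclear noncoding RNA, than those kept in the same gate. Macrophages over the limit had a median of 1755 UMIs against 4074 under it, with *Malat1* at 1.62% against 0.446% of nuclear UMIs. In CD8+ T cells the medians were 2133 and 3961 UMIs and *Malat1* 1.02% and 0.347%. Neutrophils differed least in depth, at 1414 against 1499 UMIs. The limit did not fall at a gap, since 918 barcodes lay from 9% to 10% and 719 from 10% to 11%, with median UMIs of 2185.5 and 2064.

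Barcodes over the limit were most frequent in 3 whole-tumor libraries. They made up 22.7% with anti–PD-1, 18.6% with isotype control, and 14.7% with anti–CTLA-4, against 5.78% to 8.22% in the other 5 whole-tumor libraries and 1.76% to 6.78% in the 8 Percoll libraries. The pool given both antibodies without PancVAX, at 7.92%, lay with the PancVAX pools. Percoll libraries held 5.11% ± 1.53 and whole-tumor libraries 11.6% ± 6.28 over the limit (SD, n = 8), lower in 8 of 8 pools (exact sign-flip P = 0.0078). Within gates the difference was past an adjusted P of 0.05 in neutrophils (0.458% against 13.5%), CD8+ T cells (1.07% against 4.48%), and CD4+ T cells (0.485% against 6.05%), each with an adjusted exact P of 0.0208. In macrophages it was not (5.04% against 9.42%, adjusted exact P = 0.152).

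**Figure D2:**
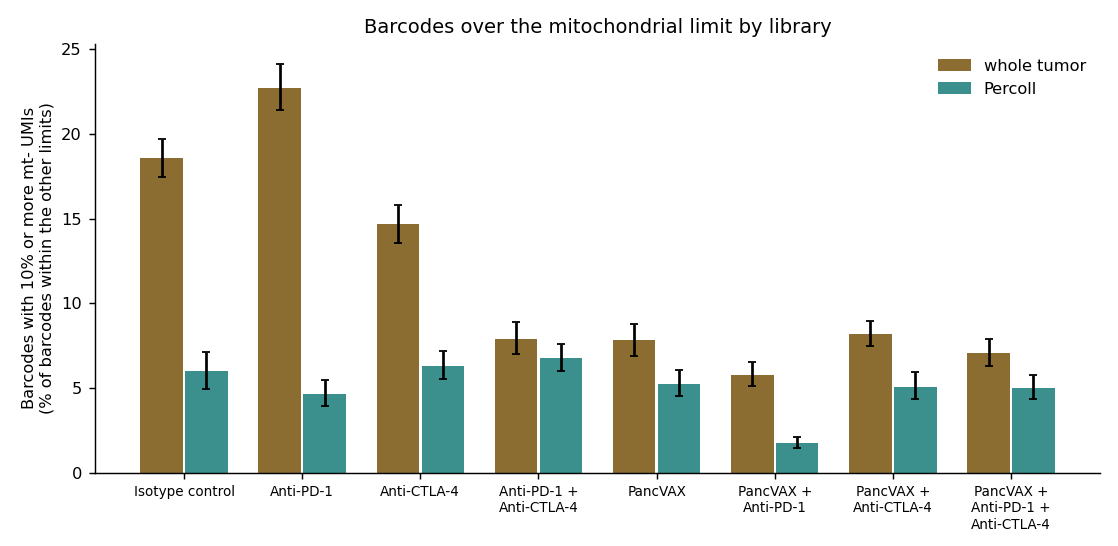
Barcodes with 10% or more mt- UMIs as a percentage of the barcodes within the other limits (y axis) in the 16 libraries (x axis, treatment; color, preparation), with 95% exact binomial intervals that cover counting error only. Isotype control, anti–PD-1, and anti–CTLA-4 whole-tumor libraries stand at 18.6%, 22.7%, and 14.7%, above the other 13 libraries.

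Among barcodes outside the CD8+ T gate, 6.63% ± 2.01 were over the limit in the 4 PancVAX pools. In the 4 pools without PancVAX 13.0% ± 3.76 were. All PancVAX pools lay below all others (exact permutation P = 0.0286, the smallest that 4 against 4 can give). The margin was narrow, with the highest PancVAX pool at 7.98% and the lowest of the others at 8.21%. This set includes ungated barcodes and unassigned T cells, and the part of cell composition was not tested. Leaving out any of the 4 PancVAX pools raised the exact P to 0.0571, with differences of −5.35 to −6.79 points. The difference did not pass within the whole-tumor libraries (−8.83 points, exact P = 0.0857) or within the Percoll libraries (−1.55 points, exact P = 0.257). By gate, CD4+ T cells (1.51% against 4.85%) and macrophages (4.29% against 11.6%) did not overlap between the groups, with an adjusted exact P of 0.129 for each. Both reached the smallest P of the test, and the adjustment over gates can pass only if most gates do. In CD8+ T cells, given as a description, the share was 1.51% ± 0.662 against 4.02% ± 1.57. Anti–PD-1 (7.75% against 9.79%, exact P = 0.486) and anti–CTLA-4 (7.77% against 9.77%, exact P = 0.514) did not pass over all barcodes.

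Between the preparations, the members' share differed most in neutrophils. In the whole-tumor libraries the neutrophil share before the 10% limit was 8.07% with isotype control, 9.45% with anti–PD-1, 8.77% with anti–CTLA-4, and 3.34% with both antibodies. It was 5.48% with PancVAX, 2.33% with PancVAX and anti–PD-1, 3.56% with PancVAX and anti–CTLA-4, and 2.23% with all 3 agents. In the Percoll libraries, in the same order, it was 0.821%, 1.00%, 1.33%, 0.889%, 0.873%, 1.80%, 0.839%, and 0.795%. The highest Percoll value lay below the lowest whole-tumor value. The means were 1.04% ± 0.351 and 5.40% ± 2.97 (exact sign-flip P = 0.0078, adjusted P = 0.0125 over 8 gates), and after the limit they were 0.845% and 3.68%.

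Lymphocytes and myeloid cells shared the direction with smaller differences, and keratin tumor cells did not pass. CD8+ T cells were at 4.11%, 4.203%, 4.23%, 2.66%, 3.15%, 2.38%, 2.99%, and 2.14% in the whole-tumor libraries and at 2.28%, 2.43%, 2.48%, 2.22%, 1.75%, 2.10%, 2.10%, and 1.77% in the Percoll libraries, in the order above. Every Percoll library was below its whole-tumor partner, although the ranges overlap. The Percoll and whole-tumor means were 2.14% and 3.23% in CD8+ T cells, 2.01% and 3.63% in CD4+ T cells, 3.35% and 4.38% in macrophages, and 2.02% and 2.90% in dendritic cells, with an adjusted exact P of 0.0125 in each. In B cells they were 3.34% and 5.73% over 7 pools (adjusted exact P = 0.0208). Keratin tumor cells were at 4.35% and 4.64% (adjusted exact P = 0.133) and fibroblasts at 6.68% and 8.06% (adjusted exact P = 0.125). Depth and other measures moved in part with the preparation. The median UMIs per CD8+ T cell were 3487 to 5544 in the Percoll and 3117 to 5006 in the whole-tumor libraries, *Malat1* took 0.284% to 0.479% and 0.263% to 0.3998% of their nuclear UMIs, and the markers of other cell types 1.94 to 4.16 and 2.88 to 4.63 per 10000. In CD4+ T cells the median UMIs were 3346 to 3924 and 2782 to 3582, and those markers 1.49 to 2.97 and 2.36 to 4.24 per 10000. In macrophages the median UMIs were 2911 to 5122 and 2604 to 4292, and those markers 2.51 to 4.66 and 3.099 to 3.75 per 10000. In B cells those markers were at 2.23 to 4.61 in the Percoll and 4.05 to 5.52 per 10000 in the whole-tumor libraries. In dendritic cells *Malat1* took 0.489% to 1.27% and 0.857% to 1.84% of nuclear UMIs. The part of these measures in the differences between preparations was not tested.

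**Figure D3:**
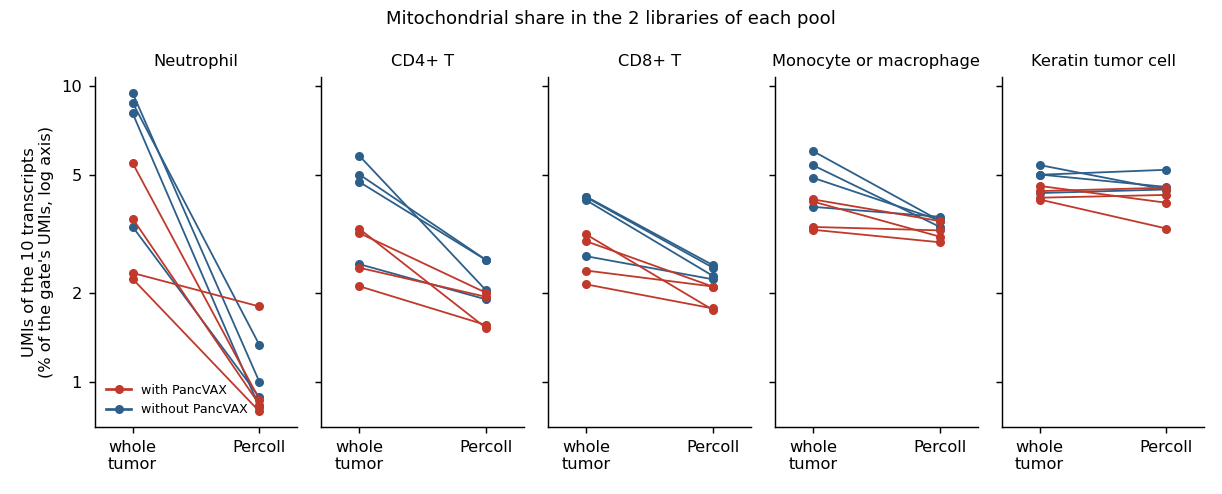
Members' share of UMIs before the 10% limit (y axis, log scale) in the whole-tumor and the Percoll library of each pool (joined points; color, with or without PancVAX) for 5 gates. The neutrophil lines fall from 2.23%–9.45% to 0.795%–1.80%, while the keratin tumor cell means are 4.64% and 4.35%.

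On the log2 scale, Percoll over whole tumor was −2.22 ± 0.977 in neutrophils, −1.31 in NK cells (3 pools, not tested), −0.79 in CD4+ T cells, −0.69 in B cells, −0.56 in CD8+ T cells, −0.51 in dendritic cells, −0.36 in macrophages, −0.31 in fibroblasts, and −0.10 in keratin tumor cells. The neutrophil difference exceeded that of each of 7 other gates tested by 1.44 to 2.12 log2 units (adjusted exact P = 0.0137 or 0.0156). These tests single out the gate with the largest difference in the same data. All 7 share its values, so they are not independent. Median UMIs per neutrophil were alike in the preparations, at 1293–1653 in whole-tumor and 1313–1732 in Percoll libraries. *Malat1* was at 1.20%–1.36% and 1.03%–1.34% of nuclear UMIs. Summed UMIs of 52 markers of other lineages were at 7.66–11.0 per 10000 in whole-tumor and 5.10–8.88 in Percoll neutrophils. The part of these in the result was not tested.

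In the fit over all genes by edgeR, on cells after the 10% limit with the pool as a block, 10 of 10 members were lower in Percoll neutrophils, with log2 fold changes from −2.16 to −1.60 and a median of −1.996, against −0.02 over all 7203 genes tested. The background share of genes called lower (adjusted P below 0.05 and a fall of over 0.5 log2 units) was 4.14%. *mt-Co3* changed by −2.16 (SE 0.188), *mt-Cytb* by −2.13 (SE 0.225), *mt-Nd1* by −2.12 (SE 0.189), and *mt-Atp8* by −1.60 (SE 0.278, adjusted P = 0.00031). In NK cells 8 of 10 members were called lower (background 1.27%), from libraries of 9 to 34 NK barcodes after the limit. In CD4+ T cells 8 of 10 were called (background 1.05%), led by *mt-Cytb* at −0.97 (SE 0.104). *mt-Co1* (−0.40) and *mt-Atp8* (−0.23) were not. In CD8+ T cells 6 of 10 were called (background 3.29%): *mt-Cytb* at −0.80, *mt-Nd4* at −0.77, *mt-Nd1* at −0.62, *mt-Atp6* at −0.61, *mt-Nd4l* at −0.55, and *mt-Nd2* at −0.52. In macrophages (background 1.78%) and keratin tumor cells (background 1.12%) 0 of 10 were called, by edgeR and by DESeq2, with 8 and 5 members at an unadjusted P below 0.05. Members changed there by −0.49 to 0.06 and by −0.39 to 0.18.

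*mt-Nd3*, a complex I gene that is no member, was called lower in Percoll in all 6 gates fitted, from −0.84 in macrophages to −1.92 in neutrophils. *mt-Nd5* (−1.53, SE 0.188) and *mt-Nd6* (−1.63, SE 0.228) were called in neutrophils and in none of the other gates they were tested in.

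The members' make-up shifted with the preparation. In CD8+ T cells *mt-Co1* made up 25.9% of the members' UMIs in Percoll and 22.9% in whole-tumor libraries, whereas *mt-Cytb* made up 9.89% and 12.2%. The log2 ratio of *mt-Co1* to the other 9 members rose by 0.24 and that of *mt-Cytb* fell by 0.33 (8 of 8 pools each, adjusted exact sign-flip P = 0.0273 over 70 members by gates). *mt-Co1* shifted the same way in CD4+ T cells (26.6% against 22.0%), NK cells (26.0% against 23.0%, 7 of 8 pools), and macrophages (24.8% against 21.9%). *mt-Cytb* went the other way in keratin tumor cells, at 17.0% in Percoll and 15.7% in whole-tumor libraries (adjusted exact P = 0.0273). In all, 24 of 70 member-by-gate shares passed, and *mt-Nd4* fell in 5 gates, by 0.26 to 0.43 log2 units. Barcodes over the 10% limit also differed in make-up from those under it in the same gate. *mt-Cytb* made up 13.5% over and 11.0% under the limit in CD8+ T cells. In keratin tumor cells it made up 15.1% over and 16.5% under the limit. Of 60 shares 19 passed (adjusted exact P from 0.0260 to 0.0493). UMIs of both preparations were summed here, and barcodes over the limit were more frequent in whole-tumor than in Percoll libraries. They made up 4.48% against 1.07% of CD8+ T cells and 6.96% against 5.46% of keratin tumor cells. The differences in make-up over and under the limit are thus not separated from the preparation.

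With PancVAX the members' share was lower in every gate on average, without passing the test in any. Outside the CD8+ T gate it was 4.07% ± 0.387 in the 4 PancVAX pools and 5.19% ± 0.539 in the 4 others (difference −1.11 points, exact permutation P = 0.0571). This set again includes ungated barcodes and unassigned T cells, and the part of cell composition was not tested. The difference was −0.521 points in the Percoll libraries alone, −0.364 under a 5% limit, and −1.33 with the median over cells. Each of these 3 had an exact P of 0.0286, and they are named because they passed. The whole-tumor libraries alone did not pass. By gate, the log2 effect on the share in Percoll libraries ran from −0.37 in CD4+ T cells to 0.03 in neutrophils. In whole-tumor libraries it ran from −1.11 in neutrophils to −0.17 in fibroblasts. The CD8+ T share, given as a description, was 2.41% with PancVAX, 2.23% with anti–PD-1 added, 2.58% with anti–CTLA-4 added, and 1.91% with both added. Without PancVAX it was 3.37% with isotype control, 3.17% with anti–PD-1, 3.16% with anti–CTLA-4, and 2.38% with both antibodies. The pool with both antibodies lay within the PancVAX range, and the other 3 pools lay above it. Macrophages were at 3.496% against 4.44% (exact P = 0.0571), keratin tumor cells at 4.12% against 4.86% (exact P = 0.0571), B cells at 3.44% against 5.24% (exact P = 0.0857), and fibroblasts at 7.17% against 7.55% (exact P = 0.743). The adjusted exact P was 0.129 or more in all 9 gates tested. After the 10% limit the groups were apart in fibroblasts (3.99% against 4.75%), B cells (3.27% against 4.42%), and NK cells (2.07% against 2.80%), each with an exact P of 0.0286 and an adjusted exact P of 0.0857. Anti–PD-1 and anti–CTLA-4 did not pass in any gate, with adjusted exact P of at least 0.381 and 0.762.

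Of the single members in CD8+ T cells, *mt-Cytb* was at 38.3 UMIs per 10000 with isotype control, 34.3 with anti–PD-1, 31.1 with anti–CTLA-4, and 23.8 with both antibodies, after the 10% limit. With PancVAX it was at 23.5, with anti–PD-1 added at 22.3, with anti–CTLA-4 added at 26.7, and with both added at 18.7. *mt-Nd4l* was, in the same order, at 18.9, 17.1, 13.7, and 10.9 without PancVAX and at 11.5, 11.0, 12.3, and 9.03 with it. *mt-Atp8* was at 10.5, 7.44, 4.16, and 4.83 without PancVAX and at 4.83, 4.06, 6.23, and 3.63 with it. In each of these 3 transcripts the groups overlap. The highest values belong to isotype control and anti–PD-1, and the pool with both antibodies lies among the PancVAX pools.

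The fitted log2 fold changes with PancVAX in CD8+ T cells were −0.54 for *mt-Cytb* (SE 0.0828), −0.54 for *mt-Atp8* (SE 0.193), −0.53 for *mt-Nd4*, −0.51 for *mt-Nd4l*, −0.47 for *mt-Co3*, −0.44 for *mt-Nd2*, −0.42 for *mt-Co1*, −0.40 for *mt-Nd1*, −0.39 for *mt-Co2*, and −0.33 for *mt-Atp6*. The rule used this contrast, so the members are not counted against the limits for a call. Of all 10763 genes in it, 4.66% were called lower and 6.95% higher. CD8+ T cells with PancVAX also had fewer UMIs, with medians of 3117–3879 against 4061–5544 over libraries, and more *Malat1* (0.358%–0.479% against 0.263%–0.313% of nuclear UMIs). Summed UMIs of 53 markers of other lineages were at 1.94–3.84 per 10000 with and 2.88–4.63 without PancVAX. The part of these in the values was not tested.

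In the 5 gates that the rule did not use, all 10 members were lower with PancVAX, and 15 of 50 were called. Neutrophils had 9 called (background 0.154% of 8457 genes), from *mt-Nd1* at −0.57 (SE 0.0992, adjusted P = 0.0213) to *mt-Atp8* at −0.95 (SE 0.176, adjusted P = 0.0308). *mt-Atp6* was at −0.45 (adjusted P = 0.161). CD4+ T cells had 5 called (background 0.544%): *mt-Cytb* at −0.68 (adjusted P = 0.0137), *mt-Nd4* at −0.58 (adjusted P = 0.0293), *mt-Co3* at −0.56 (adjusted P = 0.0083), *mt-Co1* at −0.54 (adjusted P = 0.0080), and *mt-Nd2* at −0.52 (adjusted P = 0.0388). NK cells had 1 called, *mt-Cytb* at −0.59 (adjusted P = 0.0449, background 0.0387%). In macrophages (background 0.0173%) and keratin tumor cells (background 0.00918%) 0 of 10 were called by edgeR and by DESeq2, with 10 and 7 members at an unadjusted P below 0.05. The median of the members was −0.61 in neutrophils, −0.53 in CD4+ T cells, −0.48 in NK cells, −0.32 in macrophages, and −0.26 in keratin tumor cells, where all genes tested had medians from −0.01 to 0.01. The pools used for these 5 gates are those of the CD8+ T contrast, so the gates are not independent samples of the treatment. In Percoll CD4+ T cells the markers of other lineages were at 1.49–2.07 per 10000 with and 2.17–2.97 without PancVAX. In whole-tumor CD4+ T cells they were at 2.36–3.62 and 2.61–4.24. In neutrophils of both preparations they were at 5.10–10.4 and 5.48–11.0. The part of these in the calls was not tested.

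*mt-Cytb* in CD4+ T cells was at 50.9 UMIs per 10000 with isotype control, 43.7 with anti–PD-1, 39.4 with anti–CTLA-4, and 24.0 with both antibodies, and at 24.1, 23.3, 31.04, and 18.8 in the PancVAX pools, in the same order of added antibodies. *mt-Atp8* in neutrophils was at 10.3, 6.99, 3.99, and 3.09 without PancVAX and at 3.40, 2.69, 3.59, and 2.35 with it. In both, the pool with both antibodies is the lowest without PancVAX and lies within the range of the PancVAX pools.

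**Figure D4:**
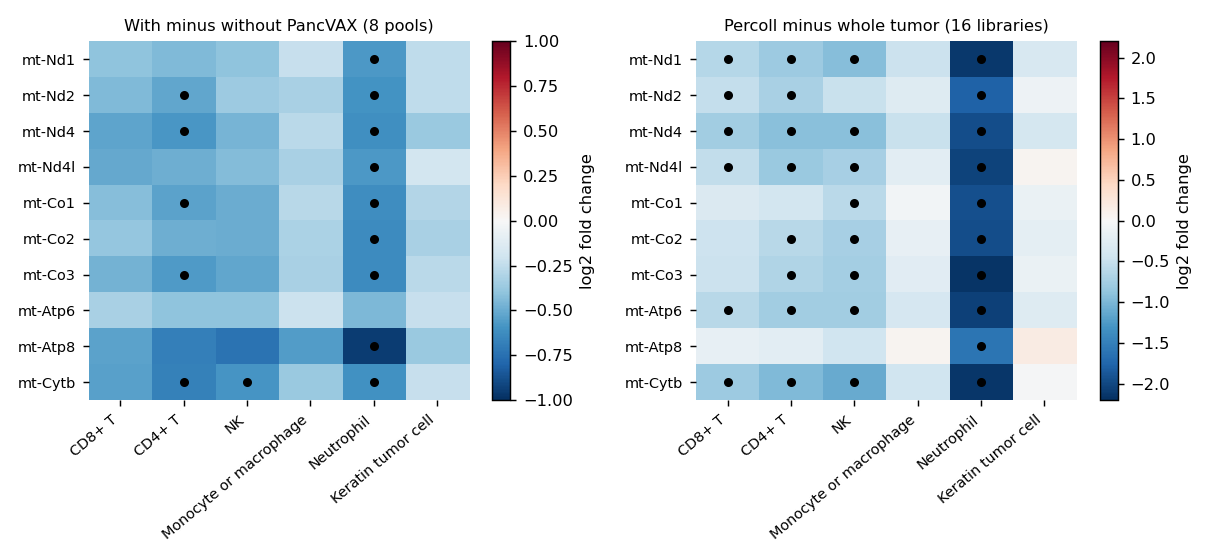
Log2 fold changes of the 10 members (rows) in 6 gates (columns) with against without PancVAX over 8 pools (left) and in Percoll against whole-tumor libraries over 16 libraries (right), with the color scale of each panel at its right. Dots mark members past both limits for a call, and none are drawn for CD8+ T cells at left, the contrast that chose the members. All cells at left are below 0, and neutrophils are the darkest column in both panels.

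The number of calls with PancVAX changed with the set of libraries, with single pools, and with the limits on cells. Over all alternatives, the 15 calls were kept in 165 of 300 results, lost in 132, and reversed in direction in 3. They numbered 4 in a fit of 16 libraries with preparation as a covariate, 0 under a limit of 5% mt- UMIs, and 2 with no upper limits on genes and UMIs. Within the whole-tumor libraries 9 members were called lower in CD4+ T cells (background of the same fit 0.637%), 7 in NK cells (0.724%), 2 in macrophages (0.0470%), 9 in neutrophils (0.215%), and 0 in keratin tumor cells (0%), with medians of −0.69, −0.74, −0.40, −1.01, and −0.29. Within the Percoll libraries 0 were called in any of the 5 gates (background 0.275% in CD4+ T cells and 0% in the others), with medians of −0.35, −0.14, −0.05, −0.07, and −0.14. In CD8+ T cells the medians were −0.64 and −0.30. The difference between the preparations in the log2 effect on the summed share did not pass in any gate. In neutrophils it was −1.11 in whole-tumor and 0.03 in Percoll libraries (exact permutation P = 0.114, adjusted P = 0.400). Left-out pools changed the 15 calls to 0 without the anti–PD-1 pool, 0 without PancVAX with anti–PD-1, 2 without PancVAX with both antibodies, 5 without anti–CTLA-4, and 9 without PancVAX alone. Without the Percoll library of PancVAX with anti–PD-1 they were 9.

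With anti–PD-1, 5 of 10 members were called lower in neutrophils. They were *mt-Nd1* at −0.68 (SE 0.0993, adjusted P = 0.0313), *mt-Nd2* at −0.63, *mt-Co3* at −0.62, *mt-Nd4l* at −0.61, and *mt-Co1* at −0.60 (background 0.0591% called lower), and the other 5 members lay between −0.49 and −0.57. In the other 5 gates 0 members and 0% of genes were called lower by edgeR, and DESeq2 also called 0 members there. At an unadjusted P below 0.05 were 9 members in CD4+ T cells, 8 in CD8+ T cells, 2 in macrophages, and 0 in NK cells and keratin tumor cells. Whether neutrophils differed from them was not tested in this fit. The 5 calls fell to 0 without any of 5 pools (anti–CTLA-4, both antibodies, PancVAX with anti–PD-1, PancVAX with anti–CTLA-4, or all 3 agents) and within each preparation, and they were 9 without the anti–PD-1 pool. With anti–CTLA-4, 0 of 60 members by gates were called by edgeR and by DESeq2 (background 0% in the 6 gates), with 28 at an unadjusted P below 0.05. The largest fall was that of *mt-Atp8* in neutrophils, at −0.62 (SE 0.176, adjusted P = 0.731).

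Nuclear genes of the same complexes are given beside the members, without a test of the difference. Lists of 37 complex I, 4 complex II, 9 complex III, 11 complex IV, and 16 ATP synthase genes were compared in the same fits. With PancVAX in neutrophils the medians were −0.07, −0.02, −0.07, −0.08, and −0.07 against −0.61 for the members, with 0 nuclear genes called. In keratin tumor cells they were −0.16, −0.12, −0.16, −0.22, and −0.18 against −0.26, with 0 called. In CD8+ T cells, given as a description, they were −0.22, −0.13, −0.11, −0.25, and −0.18. *Atpif1*, an inhibitor of the ATP synthase, at −0.60 in CD4+ T cells was the only gene of these 5 lists called with PancVAX in the 5 gates that the rule did not use. Between the preparations, 0 nuclear respiratory genes were called in neutrophils, with medians of −0.11, −0.01, −0.13, −0.08, and −0.12. In keratin tumor cells 3 of them were called lower in Percoll, led by *Atp5k* (−0.62) and *Ndufa5* (−0.55). The shares of all genes called higher with PancVAX were 0.957% in CD4+ T cells, 0.271% in NK cells, 0.371% in macrophages, 0.130% in neutrophils, and 0.00918% in keratin tumor cells.

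Of 25 nuclear genes of mitochondrial gene expression, *Slirp*, which stabilizes mitochondrial mRNAs, was lower in Percoll in CD8+ T cells (−0.54) and in neutrophils (−0.52). *Supv3l1*, a helicase of mitochondrial RNA decay, was higher in Percoll neutrophils (1.21, SE 0.284, adjusted P = 0.0051), and *Polg2*, a subunit of the mitochondrial DNA polymerase, in Percoll macrophages (0.51). With PancVAX in CD8+ T cells, as a description, *Polg2* was at 0.54 and *Mterf3*, a factor of mitochondrial transcription and ribosome assembly, at 0.54. The other genes of the list that were tested did not pass in these fits, and none was tested between preparations in NK cells. The shares of all genes called higher in Percoll were 2.95% in CD8+ T cells, 1.67% in CD4+ T cells, 3.54% in NK cells, 2.85% in macrophages, 6.66% in neutrophils, and 1.60% in keratin tumor cells. Of 7 genes of RNA quality and tissue dissociation, 3 were called higher in Percoll in CD8+ T cells, NK cells, and macrophages, 2 in CD4+ T cells, and 0 in keratin tumor cells, while in neutrophils 1 was higher and 1 lower. *Jun*, named here after its values were seen as was *Fos*, was higher in Percoll in CD8+ T cells (1.24), CD4+ T cells (0.81), NK cells (0.97), macrophages (0.76), and neutrophils (0.76), whereas *Fos* was higher in CD8+ T cells (1.07) and lower in neutrophils (−1.83). The part of these in the members' values was not tested.

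The ratio of *mt-Atp8* to *mt-Atp6* varied from library to library far more than from cell type to cell type. Over all barcodes it was 0.286 in the whole-tumor library of isotype control, 0.310 with anti–PD-1, 0.102 with anti–CTLA-4, 0.166 with both antibodies, 0.0912 with PancVAX, 0.161 with anti–PD-1 added, 0.0972 with anti–CTLA-4 added, and 0.131 with both added. In the Percoll libraries, in the same order, it was 0.467, 0.101, 0.121, 0.182, 0.295, 0.123, 0.513, and 0.171. The 2 libraries of a treatment lay far apart with anti–CTLA-4 added to PancVAX (0.0972 and 0.513), with PancVAX alone (0.0912 and 0.295), and with anti–PD-1 (0.310 and 0.101), and close together with both antibodies (0.166 and 0.182) and with anti–CTLA-4 (0.102 and 0.121). The highest library was 5.63-fold above the lowest. Within a gate the SD of the log2 ratio over libraries had a median of 0.82, and within a library the SD over gates had a median of 0.12.

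**Figure D5:**
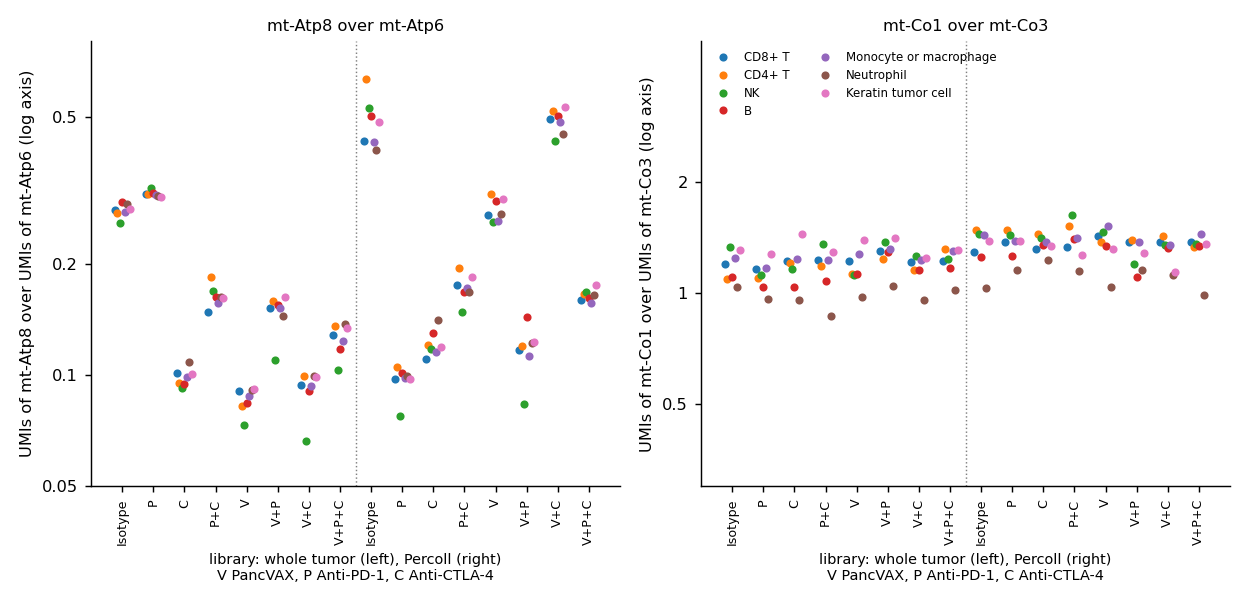
UMIs of mt-Atp8 over those of mt-Atp6 (left) and of mt-Co1 over those of mt-Co3 (right), on log axes, in 7 gates (color) of the 16 libraries (x axis, whole tumor left and Percoll right of the dotted line). At left the gates of a library lie close together while the ratio over all barcodes of a library ranges from 0.0912 to 0.513, and at right that ratio ranges from 1.15 to 1.33.

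As a share of the members' UMIs, *mt-Atp8* ranged from 1.37% to 4.85% over the 16 libraries (CV 44.4%) and *mt-Atp6* from 9.42% to 15.0% (CV 14.0%), while their sum ranged from 13.8% to 16.4% (CV 4.89%). The ratio of *mt-Co1* to *mt-Co3*, which do not overlap each other, ranged from 1.15 to 1.33. The ratio of *mt-Nd4l* to *mt-Nd4*, which overlap by 7 bases, ranged from 1.69 to 3.01, with an SD of the log2 ratio of 0.23 over libraries and 0.21 over gates. The sum of that pair also varied less (CV 4.84%) than *mt-Nd4l* (9.22%) or *mt-Nd4* (10.6%) alone. With PancVAX in CD8+ T cells the mean level of *mt-Atp8* was 4.69 against 6.74 UMIs per 10000 (log2 ratio −0.52), that of *mt-Atp6* 29.4 against 35.01 (−0.25), and that of the sum 34.1 against 41.8 (−0.29). In neutrophils the log2 ratios were −1.02, −0.39, and −0.48. The fold changes given above for *mt-Atp8* were computed with these library differences left in.

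No member changed its share among the members with a treatment past the threshold (0 of 60 tested shares with PancVAX, and 0 of 70 for each of the antibodies, exact permutation tests with adjustment). The smallest P that 4 against 4 pools can give is 0.0286, which an adjustment over this many shares can bring past 0.05 only if many shares reach it.

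Over 137 sums of gate by library, the log2 CPM of the members correlated with each other with a Pearson r from 0.51 to 0.98 (median 0.91 over 45 pairs). Of 8302 genes compared, those most like the summed members included *Ndufa4* (r = 0.61), a nuclear gene of the respiratory chain, *Eef1g* (r = 0.60), a translation elongation factor, *Camk2d* (r = 0.59), and *Selenow* (r = 0.59). *Ndufa4* averaged 675 CPM in keratin tumor cells, 572 in fibroblasts, 331 in CD8+ T cells, and 185 in neutrophils. The sums share libraries, cell types, and depth, so these values are a description with no test.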

How the data were processed

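Single-cell RNA was profiled with the 10x Chromium 5′ kit in 16 libraries. The deposited values are raw UMI counts per gene and barcode, made by the authors with Cell Ranger 4.0.0 (genome build mm10 in the submitters' processing notes, which also name Seurat). TCR contigs of the Percoll libraries served to check gates. Here UMIs were summed by gate and pool or library. A gate needed at least 3 marker UMIs from at least 2 markers and 75% of all marker UMIs, and a pool at least 20 cells. No doublet caller was run. Shares were compared by exact 2-sided sign-flip tests (256 patterns) or exact permutation tests (70 divisions), and genes by edgeR 4.0.16 (TMM, filterByExpr, quasi-likelihood test, R 4.3.3) with Benjamini-Hochberg adjustment over all genes of a gate. A call needed an adjusted P below 0.05 and an absolute log2 fold change above 0.5. The scripts were tested on simulated data. DESeq2 1.42.0 and other limits, gates, and sets of libraries were alternatives. Fits of the treatments used pools with the other 2 agents as covariates, and the preparation fit used the pool as a block, since each treatment has 1 library of each preparation in the labels. Each treatment has 1 pool, so the spread between pools of the same treatment was not measured. P-values of the treatment tests rest on the spread between pools of different treatments. Those of the sign-flip tests and of the preparation fit rest on the spread of differences within pools. Named were all members, the other mt- features, for the nuclear lists of oxidative phosphorylation and mitochondrial gene expression the 2 called genes with the largest rise and the 2 with the largest fall in each comparison, and the 5 genes most like the members, of which 1 is not reported here. The members and lists were chosen with earlier results of these data known. No sequence is printed.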

Additional observations from a re-analysis of the deposited data

Results flagged for a closer look

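Of 48 groups of 4 to 8 pools or libraries, 3 held a value far from the others, where chance gives about 1 in 20. The NK share of the PancVAX pool, 3.04% of UMIs, was the highest of the 4 PancVAX pools, with the next at 2.203%. That pool held 24 NK barcodes, 1 of them over the 10% limit, and under the limit it was at 2.22% against 1.92% to 2.10% in the other 3. The B cell share of the pool with both antibodies, 3.58%, was the lowest of the 4 pools without PancVAX, with the next at 5.70%. The Percoll library of PancVAX with anti–PD-1 had the lowest share of barcodes over the 10% limit among Percoll libraries, 1.76%, with the next at 4.67%, and it also held the most barcodes and the lowest share with *Ptprc*.

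The log2 of Percoll over whole tumor for the members' share was lower in neutrophils than in each of the other 7 gates tested. The difference was −1.66 to CD8+ T cells, −1.44 to CD4+ T cells, −1.86 to macrophages, and −2.12 to keratin tumor cells, each in 8 of 8 pools (exact sign-flip test, adjusted P = 0.0137). It was −1.79 to B cells in 7 of 7 pools, and −1.71 to dendritic cells and −1.91 to fibroblasts in 7 of 8 pools (adjusted exact P = 0.0156). The 7 tests share the values of neutrophils, the gate with the largest difference in the same data, so they are not independent. In the pool of PancVAX with anti–PD-1, whose Percoll library stands apart, the neutrophil share was 2.33% and 1.80%, the smallest of the 8 differences between preparations. The cause was not tested.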

How the results depend on the processing

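The number of neighboring gates past an adjusted P of 0.05 (0 of 9) was 4 under the 10% limit, 3 under a 5% limit, 5 with no upper limits on genes and UMIs, 1 with strict gates, 2 in the whole-tumor and 4 in the Percoll libraries alone, 3 with the median over cells, and 0 without each pool. Neutrophils then lay below CD4+ T cells by −0.540 points under 10%, −0.905 under 5%, −0.970 in Percoll, and −0.959 with medians. With no upper limits keratin tumor cells minus B cells was −1.17 and endothelial cells minus macrophages −1.22. The PancVAX difference outside the CD8+ T gate (−1.11 points) passed the exact test under 5% (−0.364), in Percoll alone (−0.521), and with medians (−1.33), and ranged from −1.36 to −0.940 without single pools, passing without the pool of both antibodies. The difference in barcodes over the limit with PancVAX (−6.34 points) no longer passed at a limit of 5% (−19.2) or 20% (−0.845), with no upper limits (−2.47), or in whole-tumor (−8.83) or Percoll libraries alone (−1.55), and ranged from −7.93 to −5.34 without single pools, which was chosen after seeing the data. That between the preparations (−6.49) no longer passed at 20% (−0.865) and ranged from −7.25 to −4.83.

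Members called lower with PancVAX (15 of 50 by gates) numbered 4 in 16 libraries with preparation as a covariate, 27 in whole-tumor and 0 in Percoll libraries alone, 0 under 5% mitochondrial, 2 with no upper limits, 9 without the Percoll library of PancVAX with anti–PD-1 (chosen after seeing the data), and 0 to 19 without single pools. In Percoll neutrophils *mt-Atp8* (0.20), *mt-Nd4l* (0.19), and *mt-Cytb* (0.10) turned upward. With anti–PD-1 (5 of 60) the calls were 9 by DESeq2, with no filter, with strict gates, and without shared barcodes, 0 in 16 libraries, in whole-tumor or Percoll libraries alone, with no mitochondrial limit, under 5%, with no upper limits, and without that Percoll library, and 0 to 9 without single pools. In Percoll neutrophils *mt-Co1* (0.091), *mt-Co3* (0.0794), and *mt-Nd4l* (0.0020) turned upward. With anti–CTLA-4 (0 of 60) there was 1 with no filter. No PancVAX or anti–PD-1 call held under every alternative. Between preparations 32 of 60 were called, 30 to 38 without single pools and 33 with no replicate block, and 22 of the 32 held under every alternative. The block moved no other count by over 1.5 times. The causes were not tested. NK cells, few in each library, and the 4 pools a group limit the precision.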
